A study of Mus musculus with 18 samples.

Results

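The 7 genes examined in mouse liver encode the calcineurin system, with the catalytic subunit genes Ppp3ca, Ppp3cb and Ppp3cc, the regulatory subunit gene Ppp3r1, and the regulators of calcineurin Rcan1, Rcan2 and Rcan3. They were taken by name, and all were found among the 54532 genes of the expression table. The set was put together after Rcan2 was already known to differ between SZ-A-treated and untreated HFD mice, and the other 6 genes were added as its family and its target enzyme. Rcan2 is therefore given as a description without a test in every comparison, and so is every member in the comparison of SZ-A with HFD mice. The other tests below carry a limit too, since the members and the gene lists were chosen with earlier results of these data known.

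The samples were livers of 18 male C57BL/6J mice, 6 in each of 3 groups, and each value comes from 1 mouse. The normal control mice (NC) ate standard chow. The HFD mice ate a high-fat diet and received saline, and the SZ-A mice ate the same diet and received SZ-A, an alkaloid preparation from Ramulus Mori (Sangzhi), the twig of mulberry. The mice were 6 weeks old at the start, the high-fat diet was fed for 14 weeks before treatment and went on during it, and all mice were fasted overnight before the livers were taken. Treatment lasted 6 weeks by the study's methods and longer by the deposited description, and the dose and route for the sequenced mice are not given in the sources used here. For NC6 the deposited diet entry reads high-fat diet, against its title. It was kept in NC. For the members, and for the named pathway genes between HFD and NC mice, values without NC6 are given where leaving it out ended a call. The calls of cell markers, and of pathway genes between SZ-A and NC mice, are not given without NC6.

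Calcineurin is the phosphatase that calcium and calmodulin switch on. It is built from a catalytic A subunit, encoded by Ppp3ca, Ppp3cb or Ppp3cc, and a calcium-binding B subunit, which is Ppp3r1 in most tissues. It removes phosphate from the NFAT transcription factors, which then enter the nucleus, and in liver also from CRTC2, a coactivator of gluconeogenic genes. The Rcan proteins bind calcineurin and can inhibit it, and a short Rcan1 transcript from an inner start site is itself induced by NFAT, so that Rcan1 serves as a feedback inhibitor and is widely used as a readout of calcineurin activity.

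Levels are in FPKM, the fragments counted on a gene divided by its length and by the library size, which allows genes of different length to be compared within a mouse. Fragments on genes ranged from 17163191 to 20493907 per mouse. Differences are given on the scale of log2(FPKM + 0.1), which understates the change of low genes, and genes with a mean of at least 1 FPKM over the 18 mice were tested with limma, 10216 in all. A gene was called when its adjusted p was under 0.05 and its fold change over 1.2. Under this rule 20.2% of the tested genes were called between HFD and NC mice, 9.6% between SZ-A and NC mice, and 0.147% between SZ-A and HFD mice. Liver RNA is a mixture, so fewer cells of a type and less RNA per cell cannot be told apart. The labelled tissue was checked against hepatocyte markers, which were high in every mouse. Alb, the albumin gene, lay between 16117 and 37152 FPKM, and Apoa1, the main HDL apolipoprotein, had medians of 8178, 4502 and 7719 FPKM for NC, HFD and SZ-A mice.

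Upstream sequence is shown for Rcan1 and Rcan2, picked because their HFD and NC mice did not overlap. The share of all genes without such overlap is not given here, so this choice marks no trait of the members. The windows are the 250 bases before an annotated transcription start, from RefSeq on GRCm38.p6, written 5′ to 3′ on the gene's strand. RefSeq windows were matched for 5 of the 7 members, with 8 windows in all. Capitals mark GGAAA or its reverse complement TTTCC, the core that NFAT factors recognise, searched on both strands without separating overlapping matches.
Rcan1 inner start, chr16:92400079-92400328, minus strand: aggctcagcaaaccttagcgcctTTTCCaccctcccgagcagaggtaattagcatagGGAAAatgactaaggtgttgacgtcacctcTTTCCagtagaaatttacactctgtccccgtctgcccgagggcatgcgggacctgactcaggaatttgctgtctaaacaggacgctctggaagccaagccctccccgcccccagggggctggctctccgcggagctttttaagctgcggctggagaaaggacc
Rcan1 outer start, chr16:92466170-92466419, minus strand: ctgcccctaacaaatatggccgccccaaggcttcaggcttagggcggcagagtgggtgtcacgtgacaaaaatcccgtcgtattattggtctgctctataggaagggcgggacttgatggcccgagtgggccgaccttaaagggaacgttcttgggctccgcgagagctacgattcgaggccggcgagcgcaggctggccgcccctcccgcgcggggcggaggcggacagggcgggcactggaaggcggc
Rcan2 first start, chr17:43801102-43801351, plus strand: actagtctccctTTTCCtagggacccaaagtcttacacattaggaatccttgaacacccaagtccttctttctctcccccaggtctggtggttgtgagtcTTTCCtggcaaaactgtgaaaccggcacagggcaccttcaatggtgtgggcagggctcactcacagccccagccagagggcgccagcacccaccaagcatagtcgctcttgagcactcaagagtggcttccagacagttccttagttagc

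The window before the inner Rcan1 start held 3 matches, whose first bases lie 227, 193 and 163 bases before the start, and overlapped no annotated exon. The window before the outer Rcan1 start held 0. That start is the outer one among the RefSeq windows, while the annotated gene reaches further, to 92470867. The bases before that end were not searched. The window before the first Rcan2 start held 2 matches, 238 and 150 bases before the start, and overlapped 1 annotated exon, and the windows before its 2 other starts held 0. The window of Ppp3cb held 3, that of Rcan3 held 1 and that of Ppp3r1 held 0. Since 55.6% of all 32851 windows of this length hold the motif, a match is a description and not a site. Gene-level FPKM adds up all transcripts of a gene, so the starts of Rcan1 and of Rcan2 could not be told apart in these data.

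In NC livers the family spanned mean levels from 0.456 to 12.0 FPKM. The regulatory subunit Ppp3r1 was highest, with a mean of 12.0 ± 1.053 FPKM (SD, n = 6), followed by Rcan1 with 7.24 ± 1.13, Ppp3ca with 4.37 ± 0.498 and Ppp3cb with 3.15 ± 0.189. The ranges of these 4 neighbours in the order did not overlap. Ppp3cc with 1.49 ± 0.337 FPKM and Rcan2 with 1.15 ± 0.309 had overlapping ranges, and Rcan3 was lowest with 0.456 ± 0.141. In HFD livers Rcan1 and Ppp3r1 were the 2 highest, with overlapping ranges, and Rcan2 was the third, overlapping Ppp3ca. Ppp3cc and Rcan3 were the lowest in HFD mice, again with overlapping ranges. In SZ-A livers Rcan2 was the fifth, between Ppp3cb and Ppp3cc and overlapping neither.

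**Figure D1:**
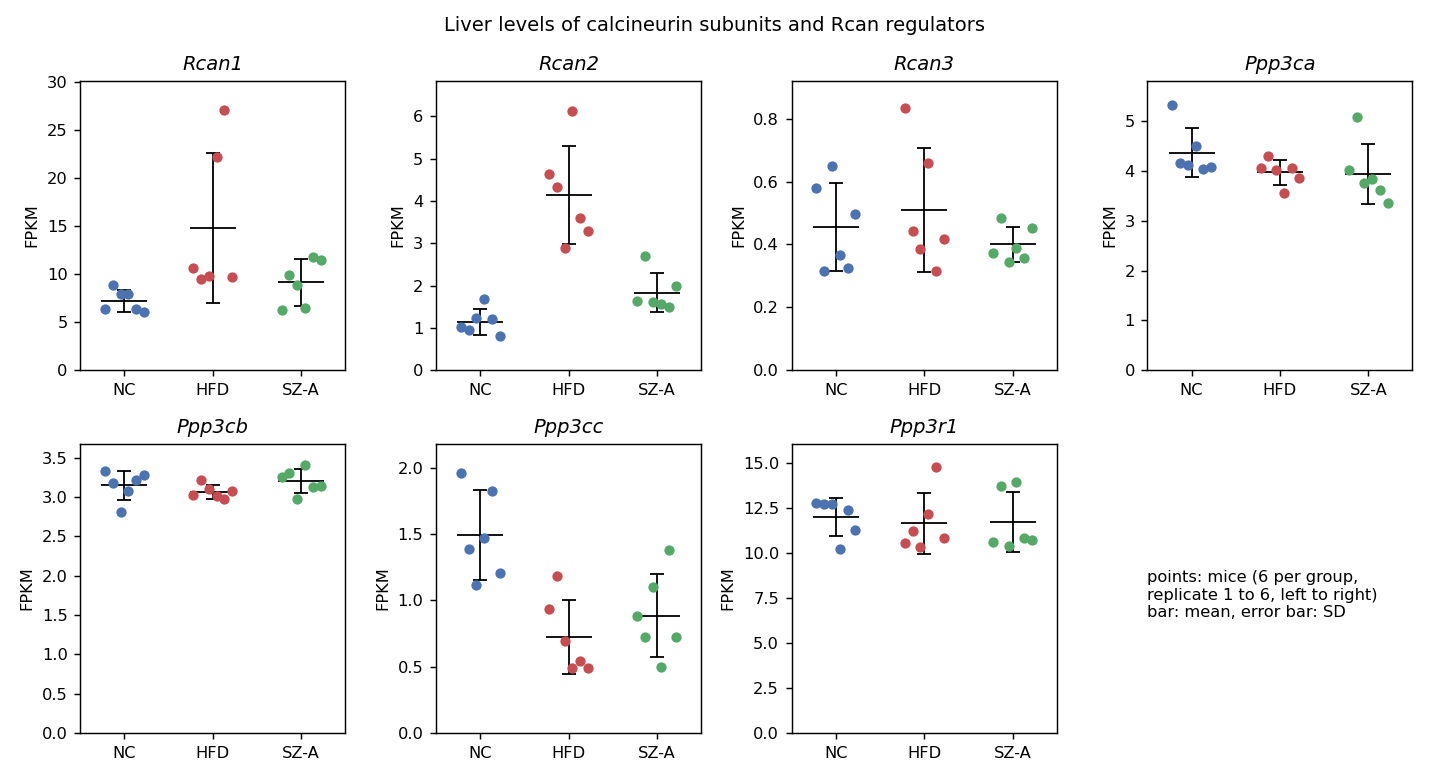
FPKM of the 7 genes in each of the 18 mice, with the group on the horizontal axis and a separate FPKM axis from 0 for each gene; points are mice, bars are group means and error bars are SD. For Rcan2 the 6 HFD mice lie above all mice of both other groups, HFD4 and HFD5 carry the highest Rcan1 values, and Ppp3cc is lower in 5 of 6 HFD mice than in any NC mouse.

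Rcan2 is annotated at chr17:43801351-44039516 on the plus strand (ENSMUSG00000039601, GRCm38). The 6 NC mice had 0.800 to 1.68 FPKM, with a median of 1.11. The HFD mice had 2.89 to 6.12 FPKM, with a median of 3.96, and the SZ-A mice had 1.505 to 2.71 FPKM, with a median of 1.62. All 6 HFD mice lay above every NC mouse and above every SZ-A mouse. The SZ-A mice overlapped the NC mice, with 2 of 6 above the highest NC mouse and 6 of 6 above the NC mean. The means of NC, HFD and SZ-A mice were 1.15 ± 0.309, 4.14 ± 1.17 and 1.83 ± 0.462 FPKM (SD, n = 6).

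The mean of Rcan2 in HFD mice was 3.61 times that in NC mice, a log2 difference of 1.76 (SE 0.19). The mean in SZ-A mice was 0.443 times that in HFD mice, a log2 difference of -1.12 (SE 0.18), and 1.60 times that in NC mice, a log2 difference of 0.64 (SE 0.18). When each mouse was left out in turn, these differences ran from 1.64 to 1.87, from -1.23 to -1.001 and from 0.52 to 0.75. The values rest on 66 to 149 fragments per NC mouse, 237 to 532 per HFD mouse and 115 to 235 per SZ-A mouse. The exons of Rcan2 share no base with another annotated gene.

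Rcan1, the feedback inhibitor, is annotated at chr16:92391953-92470867 on the minus strand (ENSMUSG00000022951). The NC mice had 6.08 to 8.83 FPKM, with a median of 7.13, and the HFD mice had 9.45 to 27.1 FPKM, with a median of 10.3, without overlap. Within the HFD group 4 mice lay between 9.45 and 10.7 FPKM, while HFD4 reached 22.3 and HFD5 27.1. The SZ-A mice, with 6.22 to 11.8 FPKM and a median of 9.44, overlapped both other groups. The means of NC, HFD and SZ-A mice were 7.24 ± 1.13, 14.8 ± 7.79 and 9.14 ± 2.41 FPKM (SD, n = 6).

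Rcan1 was higher in HFD than in NC mice, with a ratio of means of 2.05 and a log2 difference of 0.89 (SE 0.26, 95% interval 0.34 to 1.45, adjusted p = 0.0265). Of all genes tested, 10.7% were called higher in this comparison. The size of the difference rests in large part on HFD4 and HFD5. Without both mice it was 0.46 (adjusted p = 0.0217), and without HFD4 alone 0.75 (adjusted p = 0.0563), which ends the call, as did leaving out NC1 (adjusted p = 0.05005, just above the threshold) or dropping the filter on low values (adjusted p = 0.0829). Without NC6 the difference was 0.85 (adjusted p = 0.0489).

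Between SZ-A and NC mice Rcan1 was not called, with a log2 difference of 0.30 (95% interval -0.064 to 0.67, adjusted p = 0.283), although 4 of 6 SZ-A mice lay above every NC mouse. Between SZ-A and HFD mice the log2 difference of Rcan1 was -0.59 (SE 0.29), and 3 of 6 SZ-A mice lay below every HFD mouse. Without HFD4 and HFD5 that difference was -0.16. The mice with high Rcan1 differed in Rcan2. HFD4 was highest of the group for Rcan2 with 6.12 FPKM, whereas HFD5 with 3.61 FPKM lay below the group mean.

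Rcan3, the third regulator, is annotated at chr4:135412308-135433853 on the minus strand (ENSMUSG00000059713). It was the lowest member in all 3 groups, with 0.314 to 0.650 FPKM for NC, 0.317 to 0.833 for HFD and 0.343 to 0.483 for SZ-A mice. The ranges overlapped in every comparison, and the values rest on 27 to 90 fragments per mouse. Its mean over the 18 mice of 0.455 FPKM was under the minimum for testing. With no filter on low values its log2 difference was 0.11 between HFD and NC mice (adjusted p = 0.826) and -0.12 between SZ-A and NC mice (adjusted p = 0.777).

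**Figure D2:**
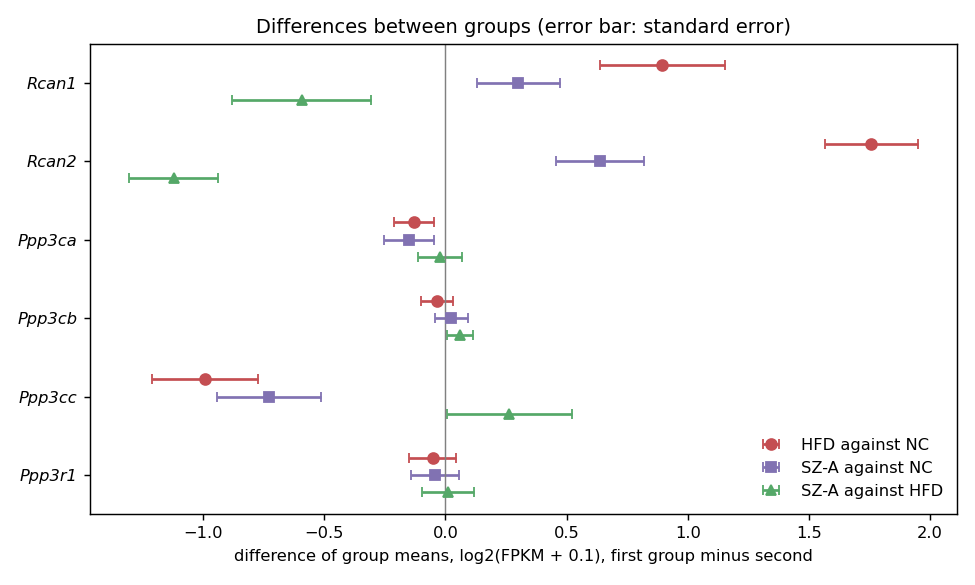
Differences between group means of the 6 members with a mean of at least 1 FPKM, on the log2(FPKM + 0.1) scale along the horizontal axis, for HFD against NC (circles), SZ-A against NC (squares) and SZ-A against HFD (triangles); error bars are standard errors from limma. Rcan1 and Rcan2 lie to the right of 0 against NC, Ppp3cc lies to the left at -0.99 and -0.73, and Ppp3ca, Ppp3cb and Ppp3r1 lie between -0.15 and 0.060.

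Among the catalytic subunits, Ppp3cc was lower in HFD than in NC mice. Ppp3cc encodes the gamma isoform of the catalytic subunit, best known from testis, and is annotated at chr14:70217865-70289471 on the minus strand (ENSMUSG00000022092). The NC mice had 1.11 to 1.96 FPKM, with a median of 1.43. The HFD mice had 0.489 to 1.18 FPKM, with a median of 0.620, and the SZ-A mice had 0.500 to 1.38 FPKM, with a median of 0.805. The values of 5 of 6 HFD mice lay below every NC mouse, with HFD2 inside the NC range, and 5 of 6 SZ-A mice lay below every NC mouse, with SZ-A5 inside it.

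Ppp3cc passed the minimum of 1 FPKM, with a mean of 1.03 over the 18 mice, only through the NC group, in which it was high. Its comparisons with NC were therefore taken from the fit with no filter on low values, and the values of the filtered fit are given beside them as a description. The means of NC, HFD and SZ-A mice were 1.49 ± 0.337, 0.723 ± 0.281 and 0.885 ± 0.314 FPKM (SD, n = 6).

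The mean of Ppp3cc in HFD mice was 0.484 times that in NC mice, a log2 difference of -0.99 (SE 0.22). With no filter the adjusted p was 0.0207, where 781 of the 27266 genes in that fit were called lower. With the filter it was 0.00694, where 9.49% of all tested genes were called lower. The size depended on the pseudocount, with a log2 difference of -0.54 for a pseudocount of 1. In SZ-A mice the log2 difference from NC was -0.73 (SE 0.22), which was not called with no filter (adjusted p = 0.129). In that fit 257 of 27266 genes were called lower. With the filter the adjusted p was 0.0498, where 4.3% of all tested genes were called lower, and it was 0.0543 without NC6 and passed the threshold in 6 of 22 alternatives. Between SZ-A and HFD mice the log2 difference was 0.26 (SE 0.26).

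Ppp3cc was counted from 27 to 103 fragments per mouse. Of its exonic bases 3.05% are shared with Gm49417, annotated as antisense, which averaged 1.06, 0.552 and 0.714 FPKM over the NC, HFD and SZ-A mice. The sources used here do not state whether strand was used in counting, so reads from the shared 91 bases cannot be assigned to one of these genes.

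Ppp3ca, which encodes the alpha catalytic subunit, is annotated at chr3:136670124-136937727 on the plus strand (ENSMUSG00000028161). Levels were 4.03 to 5.33 FPKM for NC, 3.56 to 4.30 for HFD and 3.35 to 5.08 for SZ-A mice, with medians of 4.14, 4.05 and 3.80 and overlap between all groups. Its log2 difference from NC was -0.13 in HFD mice (95% interval -0.31 to 0.050, adjusted p = 0.293) and -0.15 in SZ-A mice (95% interval -0.37 to 0.073, adjusted p = 0.393). Its difference between SZ-A and HFD mice was -0.023 (SE 0.091).

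Ppp3cb, which encodes the beta catalytic subunit, is annotated at chr14:20499364-20546573 on the minus strand (ENSMUSG00000021816). It was the member with the smallest spread between HFD mice, 2.97 to 3.21 FPKM, against 2.80 to 3.33 for NC and 2.98 to 3.41 for SZ-A mice. Its log2 difference from NC was -0.035 in HFD mice (95% interval -0.18 to 0.11, adjusted p = 0.745) and 0.025 in SZ-A mice (95% interval -0.12 to 0.17, adjusted p = 0.864). For SZ-A against HFD mice it was 0.060 (SE 0.055).

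Ppp3r1, which encodes the B subunit of most tissues, is annotated at chr11:17159263-17200375 on the plus strand (ENSMUSG00000033953). Levels were 10.2 to 12.8 FPKM for NC, 10.3 to 14.8 for HFD and 10.4 to 14.0 for SZ-A mice, with medians of 12.6, 11.02 and 10.8. The highest value of the 18 mice was that of HFD5, which was also highest for Rcan1. Its log2 difference from NC was -0.052 in HFD mice (95% interval -0.26 to 0.16, adjusted p = 0.739) and -0.043 in SZ-A mice (95% interval -0.25 to 0.17, adjusted p = 0.837), and between SZ-A and HFD mice it was 0.0092 (SE 0.11). Of its exonic bases 14.3% are shared with Wdr92 on the same strand, whose mean was 3.33 FPKM in NC and 4.02 in HFD mice. The testis form of the B subunit, Ppp3r2, was listed at 0 FPKM in all 18 mice.

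The directions of Ppp3ca, Ppp3cb and Ppp3r1 between HFD and NC mice depended on scaling. With every mouse rescaled to the same summed FPKM, the median log2 difference of all genes moved from -0.033 to 0.15. The differences of Ppp3ca, Ppp3cb and Ppp3r1 then became 0.060, 0.15 and 0.14, none of them called, while Ppp3cc was at -0.82 and Rcan1 was called higher at 1.09 (adjusted p = 0.00601). The library size behind the deposited FPKM was 0.998 to 1.14 times the fragments on genes for HFD mice and 0.933 to 1.02 times for NC mice, and the part of this factor in the differences was not tested. Of the 4 members other than Rcan2, Ppp3cc and the untested Rcan3, 1 was called between HFD and NC mice, beside 20.2% of all genes. Between SZ-A and NC mice 0 of these 4 were called by limma or by voom, beside 9.6% of all genes by limma. Of the same 4, 0 had an unadjusted p under 0.05, beside 2602 of all 10216 genes.

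The balance between regulators and catalytic subunits was followed within each mouse, as a description. The FPKM of the 3 Rcan genes summed to 8.85 ± 1.23 for NC, 19.5 ± 8.26 for HFD and 11.4 ± 2.61 for SZ-A mice (SD, n = 6). The 3 catalytic genes summed to 9.01 ± 0.876, 7.77 ± 0.561 and 8.03 ± 0.627. The ratio of the sums was 0.748 to 1.22 for NC, 1.64 to 4.11 for HFD and 1.01 to 1.93 for SZ-A mice, so the HFD and NC mice did not overlap while the SZ-A mice overlapped both. The ratio is built in part from Rcan2, whose difference was known when the genes were chosen.

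Rcan1 made up at least 66.1% of the Rcan FPKM in every mouse. The share of Rcan2 averaged 13.0% ± 2.78 for NC, 23.1% ± 6.69 for HFD and 16.5% ± 3.76 for SZ-A mice (SD, n = 6). The HFD mouse with the lowest Rcan2 share, 11.6%, was HFD5, whose Rcan1 was highest. The share of Ppp3cc in the catalytic FPKM averaged 16.4% ± 2.45, 9.14% ± 2.87 and 11.04% ± 3.89 for the same groups. Ppp3r1 stood at 1.34, 1.51 and 1.46 times the catalytic sum for NC, HFD and SZ-A mice.

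**Figure D3:**
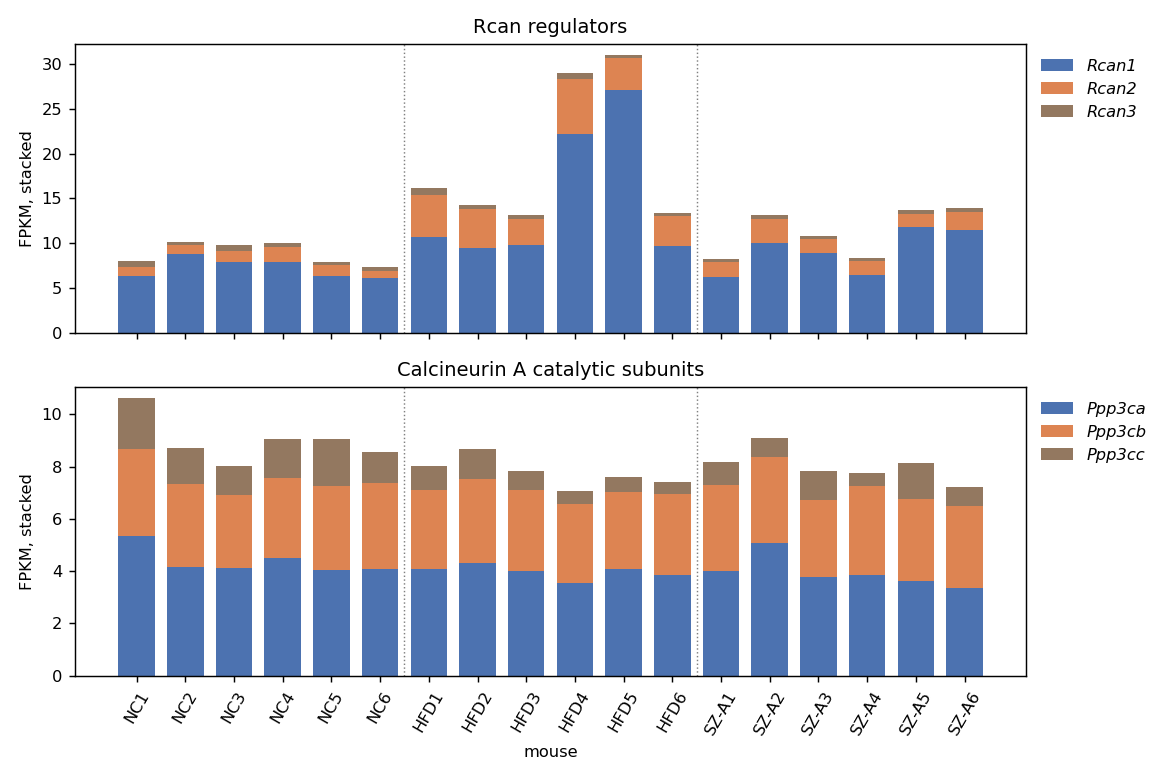
Stacked FPKM of the 3 Rcan regulators (upper panel) and of the 3 calcineurin A catalytic genes (lower panel) in each of the 18 mice, with 1 bar per mouse and both axes starting at 0. The Rcan stacks of HFD4 and HFD5 reach 29.0 and 31.0 FPKM, mostly Rcan1, and the catalytic stacks of all mice lie between 7.06 and 10.6 FPKM.

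The wider pathway was examined with a list of 41 other genes of calcium entry, calmodulin, calcineurin anchoring, NFAT and its kinases, of which 30 were tested. This list, too, was chosen with earlier results of these data known. Between HFD and NC mice 5 of the 30 were called, 1 higher and 4 lower, which is 16.7% against 20.2% of all genes. The median log2 difference of the 30 was -0.11, against -0.033 for all genes, with 9 above 0 and 21 below. Between SZ-A and HFD mice 0 of 30 were called by limma and 0 by voom, beside 15 and 33 of all 10216 genes. An unadjusted p under 0.05 was found for 2 of the 30, beside 1515 of all genes. Between SZ-A and NC mice 3 of 30 were called, 2 higher and 1 lower, which is 10% against 9.6% of all genes.

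Calm2, a calmodulin gene, fell from 65.7 ± 9.002 FPKM in NC to 45.8 ± 5.03 in HFD mice (SD, n = 6), with no overlap and a log2 difference of -0.52 (SE 0.10, adjusted p = 0.00360). In SZ-A mice Calm2 was at 53.6 ± 4.34 FPKM and was not called against NC mice (adjusted p = 0.0696). The median log2 difference of the 3 tested calmodulin genes between HFD and NC mice was 0.25, so Calm2 does not stand for all of them. Processed copies of calmodulin genes exist in the mouse genome, and how the counting treated reads that match several places is not given in the sources used here.

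Of the other called genes, Mef2d, a calcineurin-responsive transcription factor, was lower in all 6 HFD mice (4.09 to 4.92 FPKM) than in any NC mouse (6.36 to 8.89 FPKM), with a log2 difference of -0.63 (SE 0.089, adjusted p = 0.000493). It was also lower in SZ-A than in NC mice by -0.50 (SE 0.13, adjusted p = 0.0316). Also called between SZ-A and NC mice was Stim2, a sensor of calcium stores, named here after its values were seen, at 3.61 ± 0.417 against 2.79 ± 0.237 FPKM (log2 difference 0.35, SE 0.092, adjusted p = 0.0291). Gsk3a, a kinase that opposes calcineurin on NFAT, fell by 0.27 on the log2 scale between NC and HFD mice (adjusted p = 0.0171). All 5 tested NFAT kinases had a negative difference, of which only that of Gsk3a was called, beside a median of -0.033 for all genes. That median was 0.15 with FPKM scaled to a common sum, and the other NFAT kinases are not given under that scaling. The call of Gsk3a was lost in 10 of 24 alternatives, and with FPKM scaled to a common sum its difference was -0.077 (adjusted p = 0.560). Leaving out any of NC3, NC4, NC5, HFD2, HFD3 or HFD6 took its fold under the limit, with log2 differences of -0.26 to -0.25.

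Ppia, the cyclophilin that carries cyclosporin to calcineurin, was at -0.29 between HFD and NC mice (adjusted p = 0.0322). Its call was lost in 11 of 24 alternatives, among them the common sum (adjusted p = 0.521) and leaving out any of NC2, NC6, HFD2, HFD3, HFD4 or HFD6, with adjusted p up to 0.0697 for a single mouse left out and 0.0601 without NC6. Ppia has many pseudogene copies that can share its reads.

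Of the NFAT factors themselves, 2 of 4 were tested and neither was called between HFD and NC mice. Nfatc3 averaged 3.50 ± 0.588, 2.98 ± 0.258 and 3.15 ± 0.117 FPKM for NC, HFD and SZ-A mice (HFD against NC, adjusted p = 0.217). Nfatc1 averaged 1.49 ± 0.230, 1.69 ± 0.0900 and 1.62 ± 0.295 FPKM (adjusted p = 0.255). Nfatc2 and Nfatc4 had means of 0.0483 and 0.0775 FPKM over the 18 mice and were not tested.

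**Figure D4:**
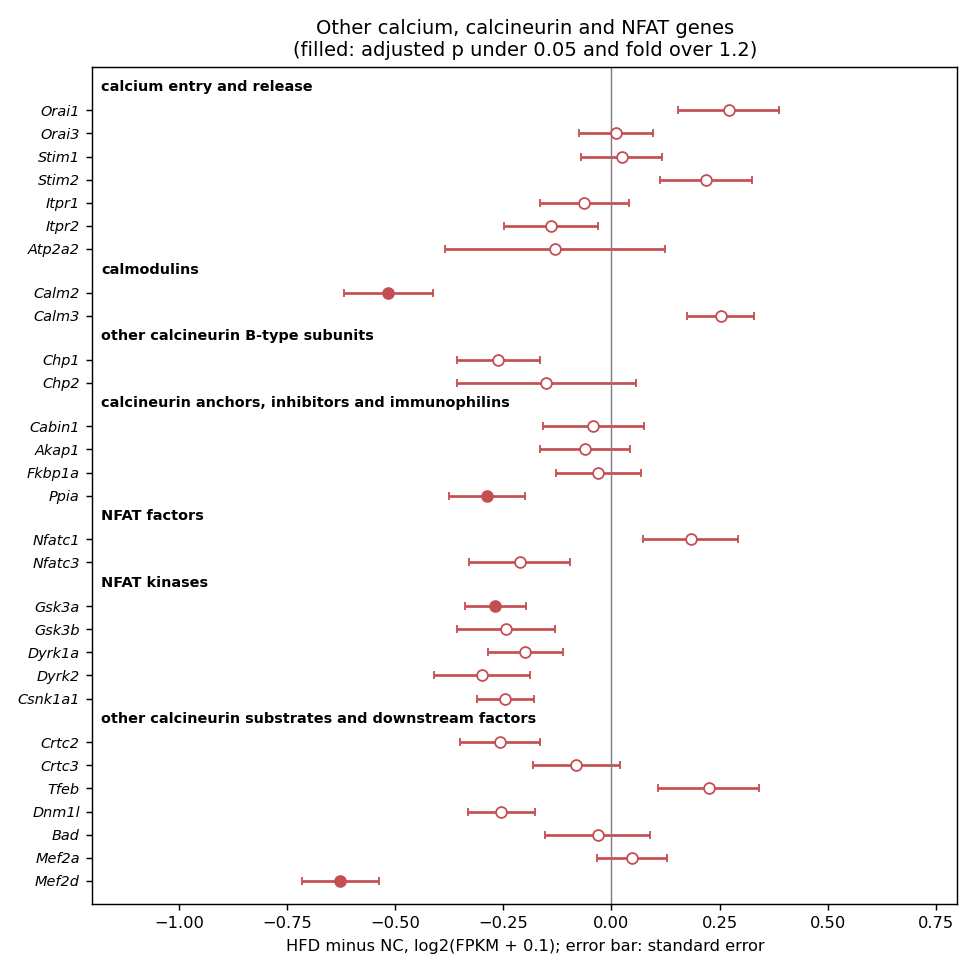
Difference between HFD and NC means of 29 tested pathway genes on the log2(FPKM + 0.1) scale, grouped by role; error bars are standard errors from limma, and filled points passed an adjusted p of 0.05 and a fold of 1.2. The called genes Calm2, Ppia, Gsk3a and Mef2d lie to the left of 0.

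Markers of other liver cell types moved with the diet beside these genes. Of all tested genes 10.7% were called higher and 9.49% lower between HFD and NC mice. Of 8 Kupffer cell and macrophage markers, 4 were called higher in HFD than in NC mice and none lower, among the most abundant Lyz2 and Cd5l but not Clec4f, and their summed FPKM was 124.6 to 254.5 for NC, 242.0 to 397.8 for HFD and 212.2 to 308.0 for SZ-A mice. The sum was 353.8 in HFD4 and 397.8 in HFD5, the 2 mice with the highest Rcan1, and 361.5 in HFD2, whose Rcan1 was the lowest of the group. Of 9 stellate cell and myofibroblast markers, 6 were called higher, with sums of 37.6 to 57.4 FPKM for NC, 42.7 to 98.8 for HFD and 39.2 to 58.1 for SZ-A mice. Among these 6, Col1a2 averaged 0.709, 3.20 and 1.18 FPKM over NC, HFD and SZ-A mice. Col1a2 passed the minimum of 1 FPKM only through the HFD group, in which it was high, so its call supports nothing. HFD5 was the lowest HFD mouse for the stellate sum. Of 7 endothelial markers 1 was called higher, and of 6 hepatocyte markers 2 were called lower, Apoa1 among them, with summed hepatocyte FPKM of 41564 to 59615 for NC, 28086 to 46979 for HFD and 32963 to 58757 for SZ-A mice.

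Of 4 cholangiocyte markers 1 was tested, and of 5 muscle markers 1, and neither was called between HFD and NC mice. T cell, B cell and adipocyte markers were all under the minimum for testing, with sums of at most 1.23, 0.913 and 1.09 FPKM in any mouse, and the muscle sum was 31.7 FPKM in HFD3 and at most 8.28 FPKM in any other mouse. Between SZ-A and HFD mice 1 macrophage marker was called, Cd68, which was lower, and none of the other lists had a call. Only 0.147% of all tested genes were called in this comparison, so the lack of calls in such short lists sets no cell type apart. That share is 15 genes, and the count ran from 0 to 233 over the alternatives, so it does not measure the extent of the difference. The part of these cell types in the levels of Rcan1, Rcan2 and Ppp3cc was not tested.

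The genes whose levels ran most like Rcan2 over the 18 mice were Capg, which encodes an actin-capping protein (Pearson r = 0.923), Tmc6 (r = 0.921), Mogat1, a monoacylglycerol acyltransferase (r = 0.920), Pkm, a pyruvate kinase (r = 0.910), and Rad51b, a DNA repair gene (r = 0.909), all on the log2(FPKM + 0.1) scale. These values are a description over 18 mice that share 3 groups. With the group means removed, r was 0.570 for Capg, 0.522 for Tmc6, 0.596 for Mogat1, 0.463 for Pkm and 0.761 for Rad51b. Like Rcan2, these 5 genes had their highest mean in HFD mice, with SZ-A mice in between, as for Rad51b with 0.875, 4.91 and 2.28 FPKM for NC, HFD and SZ-A mice. The genes were picked by r over the same 18 mice, so this shared order is largely built into the choice.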

How the data were processed

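Liver poly-A RNA was sequenced as paired-end reads. Per the labels and the submitters' processing notes, reads were aligned to mm10 (GRCm38) with HISAT2 2.0.5 and counted with featureCounts 1.5.0-p3. The authors deposited FPKM per gene and mouse, and the step from counts to FPKM is not given in the sources used here. The authors tested with DESeq2, which needs counts and was not repeated, and their calls are not set beside those given here. FPKM times gene length gave whole fragments for 100% of values within 0.05 of a fragment. The library size behind the FPKM was 0.933 to 1.14 times the fragments on genes.

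Each comparison was fitted on its 2 groups with limma 3.58.1 in R 4.3.3 (lmFit, eBayes with trend) on log2(FPKM + 0.1), for genes with a mean of at least 1 FPKM, with Benjamini-Hochberg adjustment over all 10216, and the fit was tested on simulated data. The members and lists were chosen with earlier results of these data known. Genes were named by rule: all 7 members, the NFAT factors, Ppp3r2, up to 5 called pathway genes per direction, the 5 genes most like Rcan2, and up to 3 of the most abundant markers of each cell list. A pathway gene that this rule covers is counted but not reported here. Cd68, Col1a2 and Stim2 were named after their values were seen. No 2 mice of a group were duplicates. Coordinates are those of the table and match GENCODE M21. Plots and tables were made with Python 3.11.15, numpy 2.4.6, pandas 2.3.3 and matplotlib 3.10.9.

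Alternatives were pseudocounts of 1 and 0.01, no filter, a mean of at least 5 FPKM, a common sum per mouse, median-ratio scaling, sample weights, 1 fit of all 18 mice, no trend in eBayes, voom on fragments with library sizes scaled by trimmed means, a replicate block, each mouse left out, and, chosen after seeing the data, leaving out HFD4 and HFD5.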

Additional observations from a re-analysis of the deposited data

Results flagged for a closer look

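In the NC group Ppp3ca was highest in NC1, with 5.33 FPKM against 4.03 to 4.51 FPKM in the other 5 mice. The gap to the next mouse was 0.636 of the group's range, above Dixon's 95% critical value of 0.625 for 6 samples. This was the 1 value of that kind among 21 sets of 6 mice (7 genes in 3 groups), and chance gives about 1 in 20.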

How the results depend on the processing

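Rcan1 was called higher in HFD than in NC mice in 21 of 24 alternatives, and Ppp3ca, Ppp3cb and Ppp3r1 were called in none. Ppp3cc passed the filter only through NC, so the counts of members that include it support nothing. Of the 5 tested members, 2 were called between HFD and NC mice, beside 20.2% of all genes. With no filter on low values 1 of 6 was called, beside 1898 of 27266 genes. With a mean of at least 5 FPKM 1 of the 2 tested was called, beside 1271 of 5183 genes. With each mouse left out 1 to 2 of 5 were called, beside 1646 to 2145 of 10216 genes, and Rcan1 was lost without NC1 or without HFD4. Between SZ-A and NC mice Ppp3cc was the 1 member called in the filtered fit, beside 9.6% of all genes, and is followed as a description only. The count was 0 with a pseudocount of 0.01, no filter, a common sum per mouse, median-ratio scaling or the replicate block (adjusted p = 0.0555 for Ppp3cc under the block). It was also 0 with a mean of at least 5 FPKM, where Ppp3cc was not tested, and 0 to 1 with each mouse left out. Between HFD and NC mice the direction turned for Ppp3ca (0.060), Ppp3cb (0.15) and Ppp3r1 (0.14) with a common sum per mouse, and for Ppp3cb with voom (0.0019), and between SZ-A and NC mice it turned for Ppp3cb without NC3 (from -0.0063 to 0.046 over all mice left out). With a pseudocount of 1 the log2 difference between HFD and NC mice was 1.24 for Rcan2, against 1.76, and -0.54 for Ppp3cc, against -0.99. The cause was not tested.

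Of all genes, 2062 were called between HFD and NC mice, 1271 with a mean of at least 5 FPKM and 1646 to 2145 with each mouse left out. With a common sum per mouse the share of higher calls was 86.3%, against 53.0%. Between SZ-A and NC mice 981 were called, against 564 with no filter, 1682 with sample weights and 601 to 1179 with each mouse left out, the lowest without SZ-A3 and 629 without SZ-A6. Between SZ-A and HFD mice 15 were called, against 0 with no filter, 26 with a mean of at least 5 FPKM, 216 with a common sum, 35 with all 18 mice in one fit, 233 with sample weights, 33 with voom, 0 with the replicate block, 0 without HFD4 and HFD5, and 2 to 49 with each mouse left out, the highest counts being 49 without SZ-A2 and 45 without HFD5. Of the pathway genes 5 were called between HFD and NC mice, against 12 with sample weights and 3 to 10 with each mouse left out, with 10 without NC5, 8 without HFD5 and 3 without HFD2, and 0 between SZ-A and HFD mice under all 24 alternatives. Correlations of deviations between same-numbered mice ran from -0.12 to 0.29, the highest between SZ-A2 and HFD2. Differently numbered mice were not compared, so these values do not settle whether equal replicate numbers pair the mice. With the replicate number as a block 1647 genes were called between HFD and NC mice and 922 between SZ-A and NC mice, and 2 members were called between HFD and NC mice. Low fragment numbers limit Rcan3 and Ppp3cc, with as few as 27 fragments in a mouse.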

Other observations

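The genes most like Rcan1 over the 18 mice, chosen after the values of Rcan1 were seen, were Ctsc, which encodes the lysosomal protease cathepsin C (Pearson r = 0.840 on the log2(FPKM + 0.1) scale, and 0.811 with group means removed), the Fc receptor gene Fcgr4 (0.832 and 0.756), the phosphatase gene Ptpn1 (0.810 and 0.699), Akr1a1 (0.793 and 0.675) and the complement gene C1qb (0.781 and 0.675). Over the NC, HFD and SZ-A mice Ctsc averaged 10.3, 20.8 and 15.7 FPKM, and C1qb averaged 44.1, 73.4 and 62.2 FPKM. These values are a description over 18 mice that share 3 groups. None of the 5 genes nearest to Rcan1 was among the 5 nearest to Rcan2.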
